A study of Sordaria macrospora with 14 samples.

Results

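In mycelium of 2 deletion strains of the fungus Sordaria macrospora, delta-asm2 and delta-SMAC_03952, 43 of 9869 gene models (0.436%) stood well above the wild type. They were chosen by their own values, in CPM (raw counts scaled by the library total). A gene entered when its mean reached 10 CPM in both deletion strains, both means were at least 2 times the wild-type mean, and the lowest of the 4 deletion libraries was at least 1.5 times the higher wild-type library. The mean in mycelium of a further deletion strain, delta-spt3, also had to stay below 8 times the wild-type mean. The mycelium values are therefore a description and carry no test. The perithecia libraries took no part in the choice, and the tests below are in perithecia.

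Sordaria macrospora is a self-fertile filamentous ascomycete. Its mycelium forms flask-shaped fruiting bodies, the perithecia, in which asci produce ascospores, and the species is a model for the genetics of this development. Spt3 is known in yeast as a subunit of SAGA, a coactivator complex that acts at promoters. No table used here gives a name or product for any of the 43 genes, so they are given by locus tag and their functions are not described.

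RNA came from 4 strains: the wild type and the strains delta-asm2, delta-SMAC_03952 and delta-spt3, each lacking the gene in its name. Sexual mycelium was grown in liquid corn meal medium, and perithecia were scraped from solid corn meal medium after 10 min in ethanol; both cultures were kept for 6 days at 25 °C. Mycelium was sequenced from all 4 strains and perithecia from the wild type, delta-asm2 and delta-SMAC_03952, which gave 7 groups of 2 replicates and 14 libraries. The labels do not say whether replicates are separate cultures, so p-values measure the spread between these libraries, which may be technical. Nor do they say whether a deletion strain is 1 isolate or several, and their library text also speaks of microdissected RNA. Tissue cannot be told apart from culture form and fixation.

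Library totals ranged from 6383079 to 24029990 counts. SMAC_03952 itself, which is not a member, stood at 247 and 230 CPM in wild-type mycelium and at 20.8 and 23.4 CPM in delta-SMAC_03952 mycelium. In perithecia it stood at 163 and 205 CPM in the wild type and at 49.5 and 40.8 CPM in delta-SMAC_03952. Its libraries thus went with their label, though part of the signal remained. No locus tag could be matched to asm2 or spt3, so those deletions were not checked, and the tissue labels could not be checked against named marker genes. The libraries are bulk RNA, in which fewer cells of a type and less RNA per cell cannot be told apart.

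In mycelium the members spanned a wide range of levels. Their wild-type means ran from 4.78 to 1602 CPM with a median of 23.99 CPM, 17 of them under 20 CPM and 6 at 100 CPM or more. The ratio of means over the wild type ran from 2.03 to 10.6 in delta-asm2 (median 2.92) and from 2.01 to 9.98 in delta-SMAC_03952 (median 2.60). At least 3-fold in both strains was reached by 11 members, and 19 stayed under 3-fold in both. The ratios thus gathered near the lower limit of the rule, with few members far above it.

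SMAC_06095 was the most abundant member per length, at 6904 CPM per kb in delta-asm2 and 7317 CPM per kb in delta-SMAC_03952 mycelium. It stood at 1672 and 1532 CPM in wild-type mycelium, at 7612 and 5851 CPM in delta-asm2 and at 6903 and 7366 CPM in delta-SMAC_03952. The 4 deletion libraries lay far above both wild-type libraries and overlapped each other. SMAC_08232, the next by level per length, stood at 70.3 and 81.5 CPM in the wild type, 438 and 374 CPM in delta-asm2, and 198 and 124 CPM in delta-SMAC_03952. Here the strains did not overlap, and delta-asm2 was the highest.

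The highest ratio in delta-asm2 belonged to SMAC_06509, at 21.0 and 23.5 CPM in wild-type mycelium and 266 and 205 CPM in delta-asm2, a ratio of means of 10.6. In delta-SMAC_03952 the same gene reached 40.7 and 49.5 CPM, a ratio of 2.03, close to the limit. SMAC_06559 followed in delta-asm2 with a ratio of 6.65, from 33.4 and 93.9 CPM in the wild type to 642 and 204 CPM. Its replicates spread widely in both strains.

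In delta-SMAC_03952 the highest ratios were those of SMAC_02475 and SMAC_06919. SMAC_02475 stood at 5.95 and 4.85 CPM in wild-type mycelium, 34.2 and 9.22 CPM in delta-asm2, and 57.2 and 50.6 CPM in delta-SMAC_03952, a ratio of 9.98 for the last. SMAC_06919 stood at 43.9 and 88.6 CPM in the wild type, 165 and 205 CPM in delta-asm2, and 489 and 305 CPM in delta-SMAC_03952, a ratio of 5.99. For both genes the delta-SMAC_03952 libraries lay above those of delta-asm2.

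Between the deletion strains, 29 members had the larger mean in delta-asm2 mycelium, a share that was not counted over all genes. The median ratio of delta-asm2 over delta-SMAC_03952 mycelium was 1.13 for the members and 0.995 for all genes. Replicates that did not overlap and means at least 2-fold apart were found for 4 members. SMAC_06509 and SMAC_08232 were higher in delta-asm2, with ratios of 5.22 and 2.52, and SMAC_02475 and SMAC_06919 were lower, with ratios of 0.40 and 0.47. The shares, 4.65% of members in each direction, stand beside 5.96% of 9499 genes higher and 3.37% lower by the same criterion. The same libraries chose the members, so nothing is read from these counts, ratios and shares.

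Replicate 1 was above replicate 2 in delta-asm2 mycelium for 37 of the 43 members, in delta-SMAC_03952 for 23, and replicate 2 was above replicate 1 in the wild type for 33. How many of all genes shifted likewise was not counted, and the role of these shifts in the choice of members was not tested. Just inside the limit of 1.5 times lay SMAC_00783, at 1.51, and SMAC_02511, also at 1.51. Just outside lay SMAC_06852 at 1.496 and SMAC_08207 at 1.49. With library sizes scaled by TMM factors the rule found 49 genes, 41 of them among the 43; SMAC_00783 and SMAC_02511 were lost, at 1.48 and 1.49. A looser limit gave 70 genes and a limit of 2 times gave 10.

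**Figure D1:**
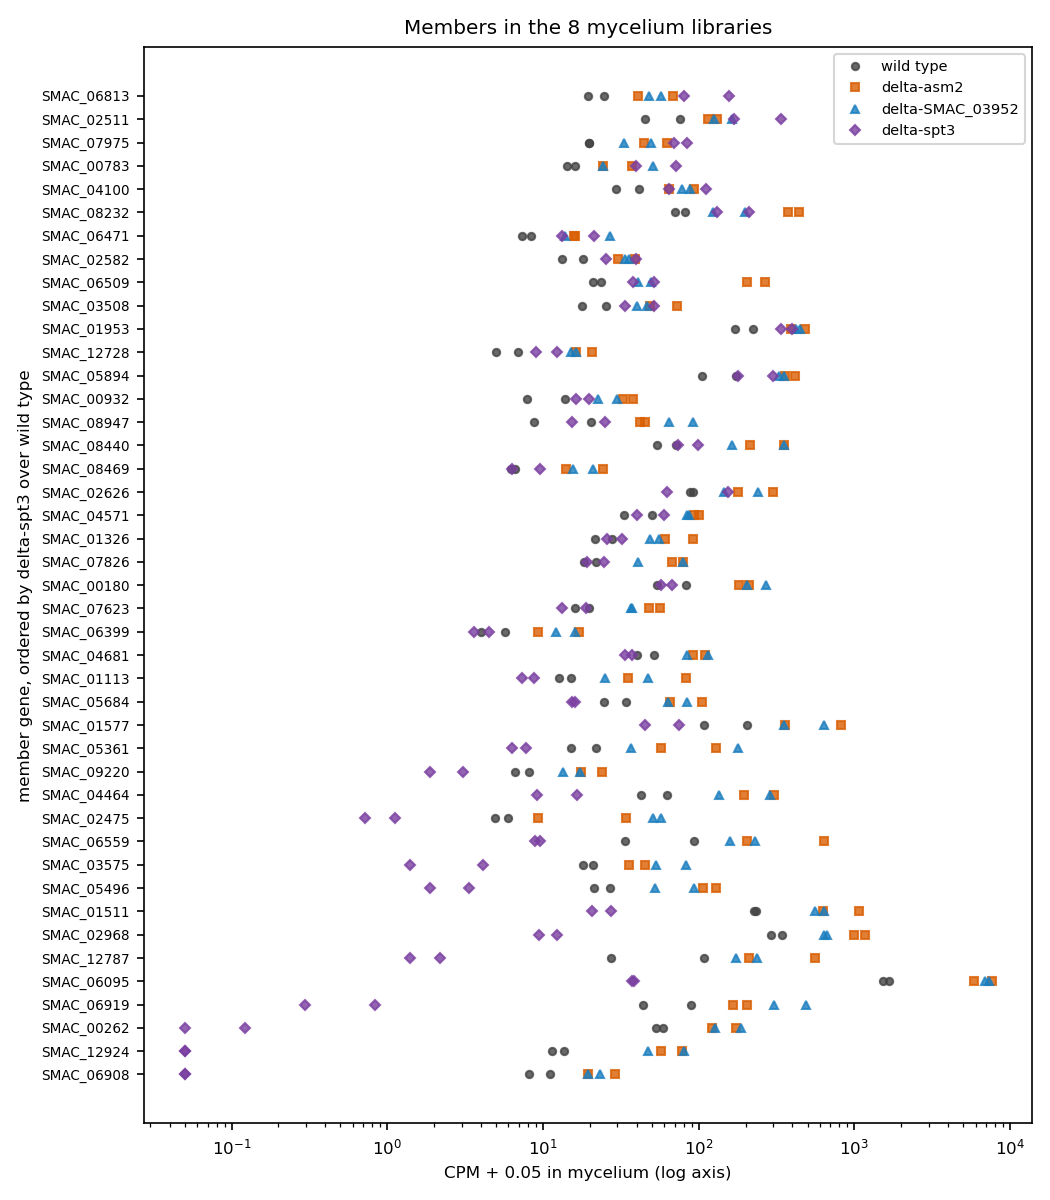
CPM (plus 0.05, log axis) of the 43 members in the 8 mycelium libraries, each marker being 1 library, with genes ordered by delta-spt3 over the wild type. Delta-asm2 and delta-SMAC_03952 lie to the right of the wild type by the rule, while delta-spt3 runs from 0 counts at the bottom to above the wild type at the top.

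In delta-spt3 mycelium the members went in both directions, as did all genes. By replicates that did not overlap and means at least 2-fold apart, 16 of the 43 (37.2%) were lower than in wild-type mycelium, beside 30.2% of all 9499 genes, 8 (18.6%) were higher, beside 16.7%, and 19 met neither. These shares are near those of all genes, and the rule used the same libraries, with an upper limit on delta-spt3. The median ratio of delta-spt3 over the wild type was 0.91 for the members and 0.88 for all genes.

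Among the lower members, SMAC_12924 had 0 counts in both delta-spt3 libraries. It stood at 13.6 and 11.4 CPM in wild-type mycelium, 77.9 and 57.2 CPM in delta-asm2 and 80.4 and 47.4 CPM in delta-SMAC_03952. SMAC_06908, at 11.1 and 8.08 CPM in the wild type, 29.0 and 19.4 CPM in delta-asm2 and 19.4 and 23.3 CPM in delta-SMAC_03952, also had 0 counts in delta-spt3. Against a floor of 3 counts over both libraries, delta-spt3 was 127-fold below the wild type for SMAC_12924 and 98.8-fold below for SMAC_06908. The exact 95% lower bounds of these ratios, from counting error only, were 103.3 and 79.98. SMAC_00262 had 1 count in delta-spt3 against 2468 in the wild type, a 1713-fold ratio (exact 95% bounds 307 and 67669, from counting error only). It was at 59.1 and 53.0 CPM in the wild type, 173 and 122 CPM in delta-asm2 and 188 and 126 CPM in delta-SMAC_03952, and is named here after its values were seen. In all, 5 members (11.6%) were under 1 CPM in delta-spt3, beside 4.81% of the 8335 genes that had at least 4 CPM in wild-type mycelium. The rule used these libraries and limited delta-spt3 from above for the members alone, so nothing is read from these shares.

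The most abundant member was among those with low values as well. SMAC_06095 stood at 38.2 and 37.4 CPM in delta-spt3, and SMAC_02968 stood at 9.41 and 12.3 CPM there, against 292 and 345 CPM in the wild type. SMAC_06919 stood at 0.24 and 0.78 CPM. At the other end, SMAC_06813 was higher in delta-spt3 than in any other mycelium, at 157 and 80.3 CPM, against 19.4 and 24.5 CPM in the wild type, 68.1 and 40.7 CPM in delta-asm2 and 57.3 and 48.1 CPM in delta-SMAC_03952. SMAC_02511 stood at 169 and 338 CPM in delta-spt3 and at 45.2 and 76.1 CPM in the wild type, a ratio of means of 4.18.

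In the wild type the members had no common tissue. Wild-type perithecia were higher than wild-type mycelium for 7 members (16.3%, beside 14.3% of all genes) and lower for 6 (13.95%, beside 11.6%), by replicates that did not overlap and means at least 2-fold apart. The median ratio of perithecia over mycelium was 1.06 for the members and 1.10 for all genes. The mycelium libraries of this comparison chose the members, and no test is given.

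The largest ratios were those of SMAC_02475, at 52.0 and 48.8 CPM in wild-type perithecia against 5.95 and 4.85 CPM in mycelium, and of SMAC_04464, at 257.5 and 272 CPM against 62.6 and 42.6 CPM. SMAC_02475 reached the level of wild-type perithecia in delta-SMAC_03952 mycelium and stayed below it in delta-asm2. SMAC_04464 overlapped that level in mycelium of both deletion strains, at 306 and 196 CPM in delta-asm2 and 288 and 135 CPM in delta-SMAC_03952 mycelium. The mean of wild-type perithecia reached the lower of the means of both deletion mycelia for 5 of the 43 members. The smallest ratios were those of SMAC_12787 and SMAC_06095. SMAC_12787 stood at 27.4 and 109 CPM in wild-type mycelium, 559.5 and 212 CPM in delta-asm2 and 174 and 236 CPM in delta-SMAC_03952 mycelium. In perithecia it lay between 2.51 and 5.46 CPM in all 6 libraries, so its high level was seen in mycelium.

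**Figure D2:**
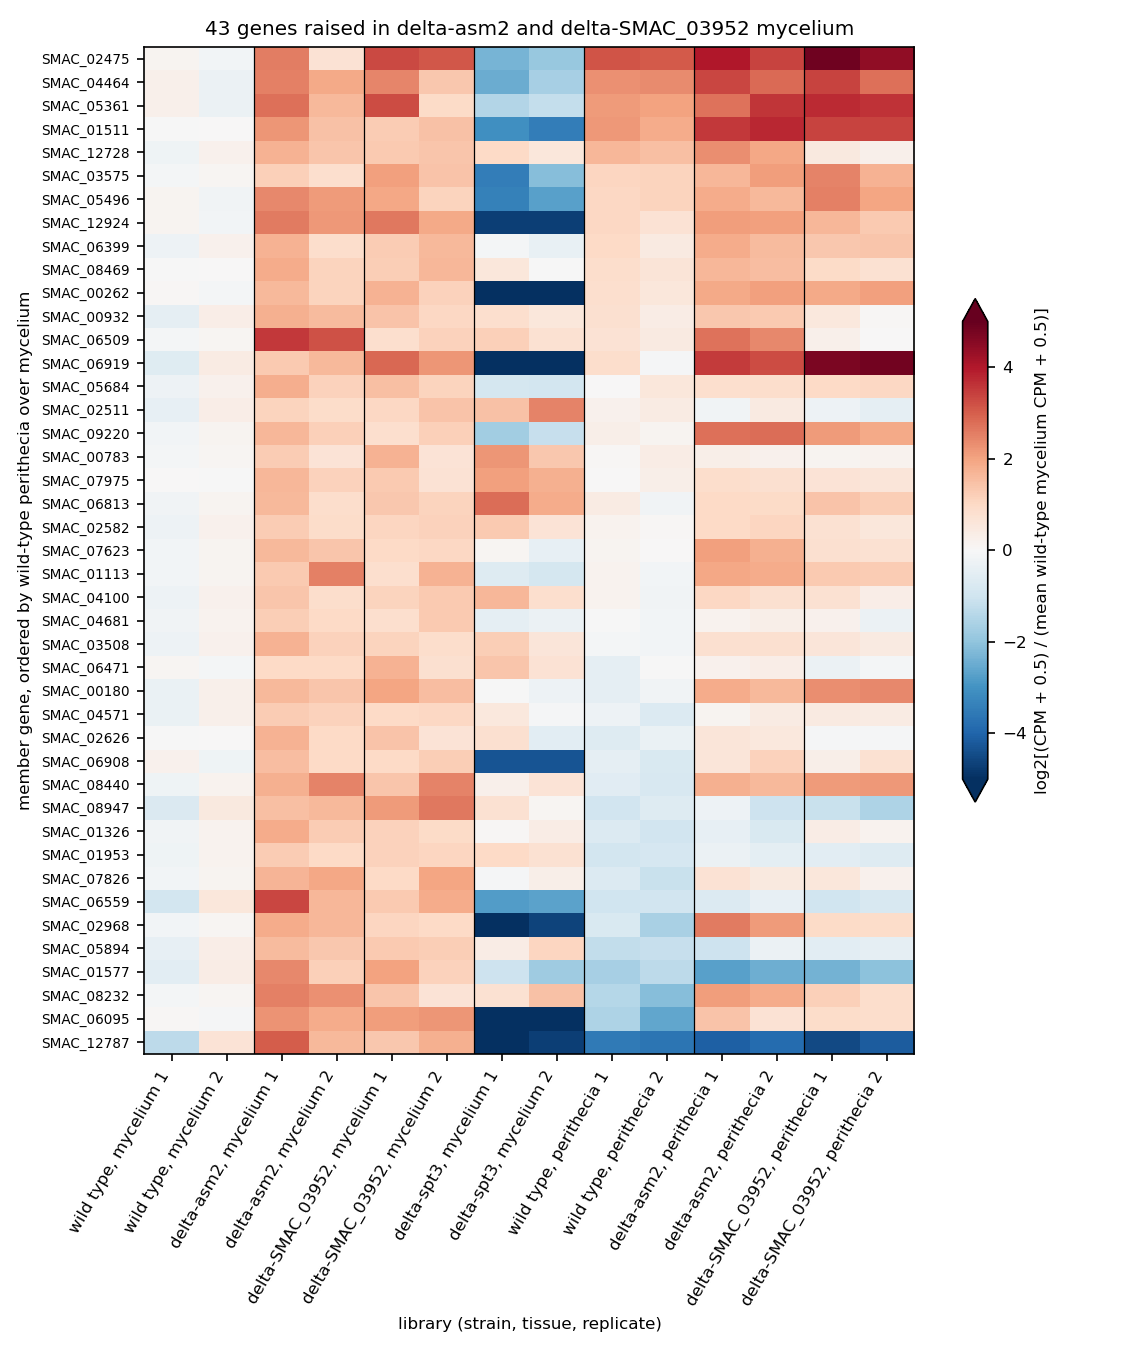
Members (rows, ordered by wild-type perithecia over wild-type mycelium) in the 14 libraries (columns), coloured by the log2 ratio of CPM + 0.5 to the mean of wild-type mycelium + 0.5, with colours saturated at the ends of the scale. Mycelium of delta-asm2 and delta-SMAC_03952 is red throughout by the rule; the delta-spt3 and perithecia columns hold both colours.

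Within each deletion strain, perithecia were compared with the mycelium that had chosen the members. The median ratio of perithecia over mycelium was 0.73 in delta-asm2 and 0.67 in delta-SMAC_03952, beside 1.14 and 1.18 for all genes. By the criterion above, 8 members were lower and 4 higher in delta-asm2 perithecia (18.6% and 9.30%, beside 8.17% and 16.7%), and 14 were lower and 6 higher in delta-SMAC_03952 perithecia (32.6% and 13.95%, beside 10.1% and 21.4%). The mycelium libraries of these ratios are those that chose the members, and nothing is read from them.

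Delta-asm2 perithecia were then set against wild-type perithecia, to ask how the members behave in the tissue that had no part in the rule. Of the 43 members, all of which passed the filter on low counts, 15 rose and none fell (34.9%, against a background of 5.04% of 9499 genes higher and 6.73% lower; edgeR quasi-likelihood test, adjusted p under 0.05). At an unadjusted p under 0.05 the test gave 23 members, beside 27.3% of all genes, and DESeq2 called 16 higher and 0 lower, beside 7.42% and 8.79% of all genes. Among the 6956 genes with 10 CPM or more in mycelium of both deletion strains, 5.39% rose and 5.55% fell. The median log2 fold change was 0.82 for the members and 0.01 for all genes. Both delta-asm2 libraries lay above both wild-type libraries for 37 members and below them for 2, beside 31.0% and 25.8% of all genes.

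SMAC_08232 rose most among the members. It stood at 27.9 and 17.0 CPM in wild-type perithecia and at 322 and 275 CPM in delta-asm2 perithecia, a 12.7-fold difference (log2 ratio 3.66 ± 0.36 SE, adjusted p = 7.01e-05 by edgeR). SMAC_02968 followed, from 189 and 103 CPM to 1912 and 1393 CPM (10.8-fold, log2 ratio 3.43 ± 0.36 SE, adjusted p = 9.44e-05 by edgeR). SMAC_06095 went from 543 and 264 CPM to 4308 and 2669 CPM, a log2 ratio of 3.04 ± 0.43 SE (adjusted p = 7.09e-04 by edgeR). For the 3 genes the groups were far apart, though the wild-type replicates spread widely.

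The remaining 12 called members had log2 fold changes between 1.14 and 2.85, and the 28 that did not pass lay between -1.15 and 1.07. SMAC_12787 stood at 5.46 and 4.96 CPM in wild-type and 3.58 and 4.21 CPM in delta-asm2 perithecia (log2 fold change -0.46, 95% interval -1.81 to 0.88). The median log2 fold change of the members was 0.89 without delta-asm2 replicate 2 and 0.67 without wild-type replicate 2. Not all of the 15 calls held when 1 of the 4 perithecia libraries was left out. In each such fit the lone remaining replicate was assumed to vary like the other groups. In the authors' deposited table, 15 members have an adjusted p under 0.05 and a positive fold change in this comparison, and 0 a negative one. That table rests on the same libraries, so it is no independent check, and the share of all genes called in it was not counted.

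Delta-SMAC_03952 perithecia gave a similar count against the same wild-type libraries. Here 13 members rose (30.2%, against 6.24% of all genes) and 1 fell (2.33%, against 11.2%), by the edgeR test at an adjusted p under 0.05. Of the genes with 10 CPM or more in mycelium of both deletion strains, 6.30% rose and 9.49% fell. The median log2 fold change was 0.60 for the members and -0.01 for all genes. Both delta-SMAC_03952 libraries lay above both wild-type ones for 31 members and below for 6, beside 34.7% and 27.7% of all genes.

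The highest rise was that of SMAC_06919, from 122 and 63.1 CPM in wild-type perithecia to 1726 and 1883 CPM (17.5-fold, log2 ratio 4.13 ± 0.48 SE, adjusted p = 1.05e-04 by edgeR). In delta-asm2 perithecia the same gene stood at 760.2 and 648 CPM, a log2 ratio of 2.85 ± 0.45 SE (adjusted p = 0.00147 by edgeR). SMAC_06095 rose to 3021 and 2949.5 CPM, a log2 ratio of 2.73 ± 0.43 SE (adjusted p = 9.25e-04 by edgeR). These levels are above those of wild-type mycelium for both genes.

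The member that fell was SMAC_12728, at 19.9 and 17.6 CPM in wild-type perithecia and 8.46 and 7.03 CPM in delta-SMAC_03952 perithecia (log2 ratio -1.40 ± 0.33 SE, adjusted p = 0.0126 by edgeR). In mycelium the same gene was higher in delta-SMAC_03952, at 15.1 and 16.3 CPM against 4.95 and 6.82 CPM in the wild type. Its call in perithecia ended without delta-SMAC_03952 replicate 1 (adjusted p = 0.0579 by edgeR), without replicate 2 (edgeR adjusted p = 0.148) and without wild-type replicate 1 (edgeR adjusted p = 0.0891), with log2 fold changes of -1.53, -1.20 and -1.17. The median log2 fold change of the members was 0.54 without delta-SMAC_03952 replicate 1, 0.69 without replicate 2 and 0.48 without wild-type replicate 2. Fewer members rose in these fits, and not all of the 14 calls held in each of them. The authors' deposited table, from the same libraries, has 17 members higher and 1 lower here. Its share of all genes was not counted.

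**Figure D3:**
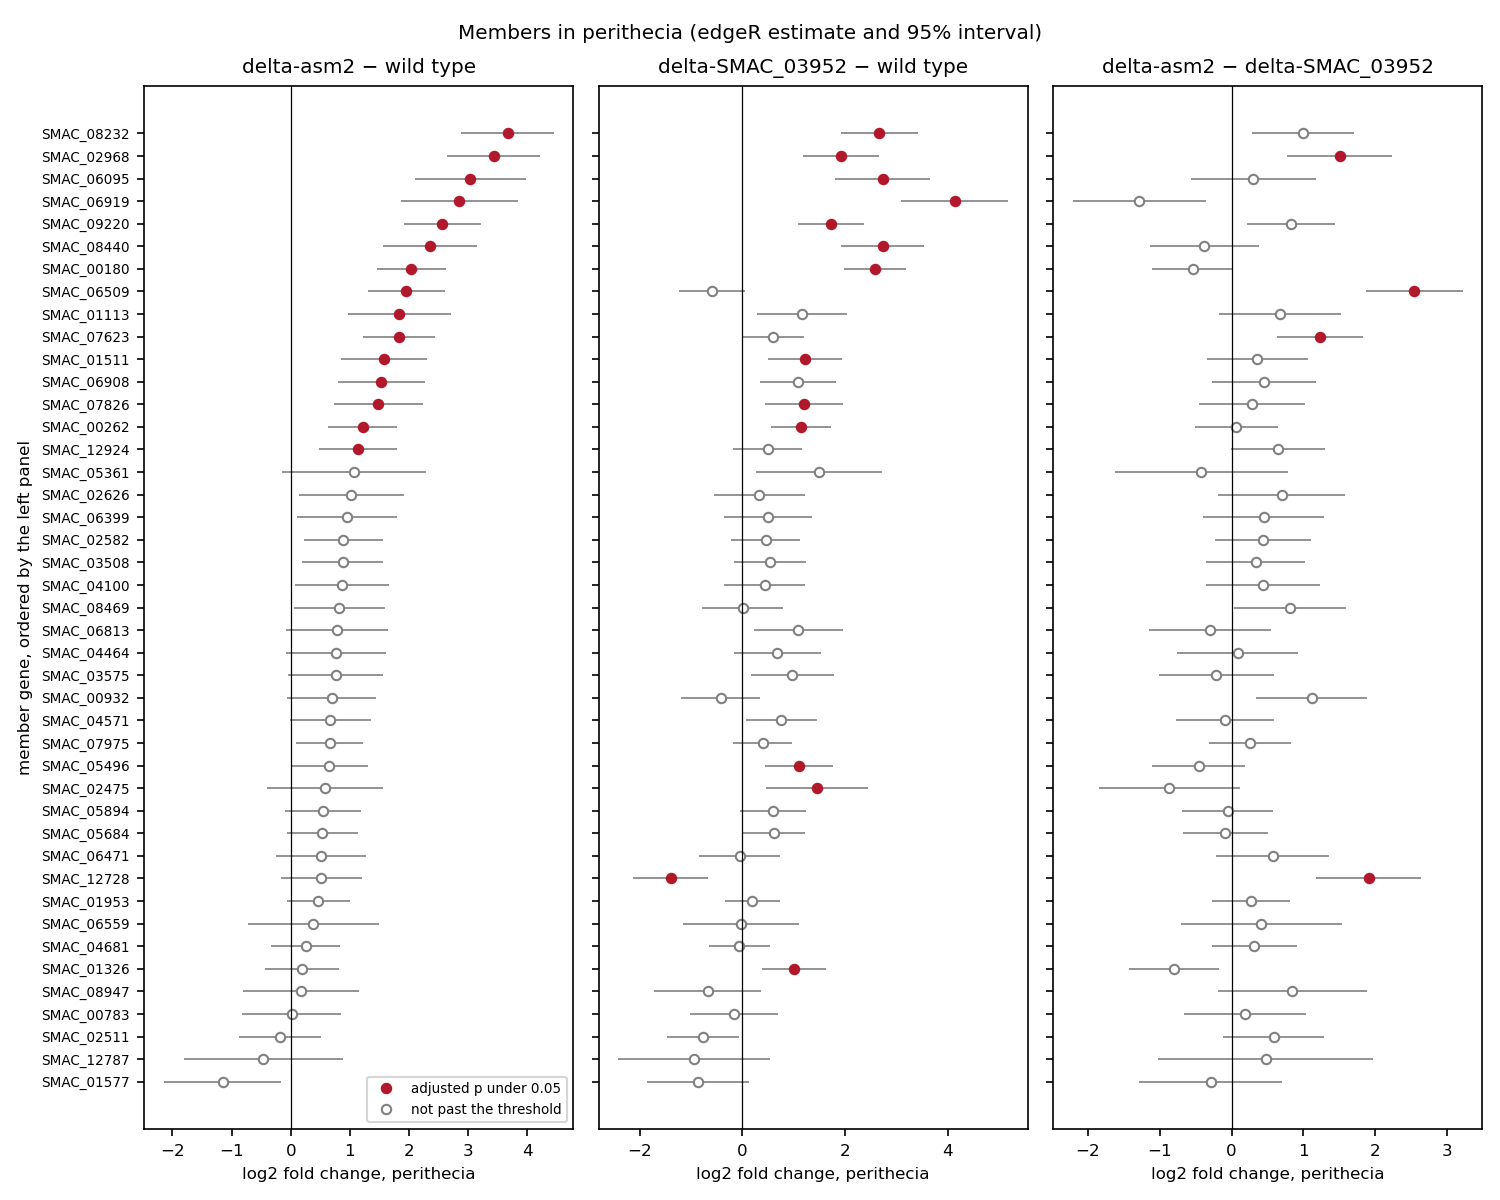
Log2 fold changes of the 43 members in perithecia with 95% intervals, for delta-asm2 minus wild type, delta-SMAC_03952 minus wild type and delta-asm2 minus delta-SMAC_03952; filled points have an edgeR adjusted p under 0.05. In the first 2 panels 15 and 13 filled points lie to the right of 0, and in the last panel 4.

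The strains were also compared with each other in perithecia. Of the 43 members, 4 were higher in delta-asm2 than in delta-SMAC_03952 perithecia (9.30%, against 3.88% of all genes) and none was lower (against 0.611%; edgeR, adjusted p under 0.05). Of the genes with 10 CPM or more in mycelium of both deletion strains, 3.23% were higher and 0.604% lower. At an unadjusted p under 0.05 there were 10, beside 17.1% of all genes, and DESeq2 called 4 higher and 1 lower, beside 5.19% and 1.77%. An edgeR fit of only these 4 libraries called 11 higher and 4 lower, beside 11.7% and 8.39%. The members that passed were SMAC_06509, SMAC_12728, SMAC_02968 and SMAC_07623. The median log2 difference was 0.34 for the members and 0.03 for all genes.

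SMAC_06509 stood at 151 and 121 CPM in delta-asm2 perithecia and at 26.3 and 22.7 CPM in delta-SMAC_03952 perithecia, a 5.84-fold difference (log2 2.55, SE 0.31, edgeR adjusted p = 5.14e-04). Wild-type perithecia held 37.4 and 30.5 CPM. Against the wild type it rose in delta-asm2 (log2 ratio 1.95 ± 0.30 SE, adjusted p = 0.0011 by edgeR), and in delta-SMAC_03952 its log2 fold change was -0.59 (95% interval -1.24 to 0.05, edgeR adjusted p = 0.2). In mycelium too it was higher in delta-asm2 than in delta-SMAC_03952.

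SMAC_12728 stood at 31.2 and 24.1 CPM in delta-asm2 perithecia, 3.76-fold above delta-SMAC_03952 (log2 1.91, SE 0.34, edgeR adjusted p = 0.00599). SMAC_02968 and SMAC_07623 followed with log2 differences of 1.504 and 1.23 (adjusted p = 0.0241 and 0.0257 by edgeR); SMAC_07623 stood at 75.8 and 62.3 CPM in delta-asm2 and 31.2 and 30.8 CPM in delta-SMAC_03952 perithecia. Of the 4 calls, that of SMAC_06509 held whichever library was left out. Without delta-asm2 replicate 1 or without either delta-SMAC_03952 replicate, fewer members and fewer of all genes were called. SMAC_06919, higher in delta-SMAC_03952, did not pass (log2 -1.28, 95% interval -2.21 to -0.35, edgeR adjusted p = 0.13); its adjusted p was 0.0332 with DESeq2 and 0.00219 with edgeR on only these 4 libraries. SMAC_08232 likewise did not pass (log2 1.00, adjusted p = 0.122 by edgeR) and passed on only these 4 libraries (adjusted p = 0.00633 by edgeR). SMAC_06095 differed little, with a log2 difference of 0.30 and a 95% interval of -0.57 to 1.17, and without delta-asm2 replicate 1 its log2 difference was -0.14.

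**Figure D4:**
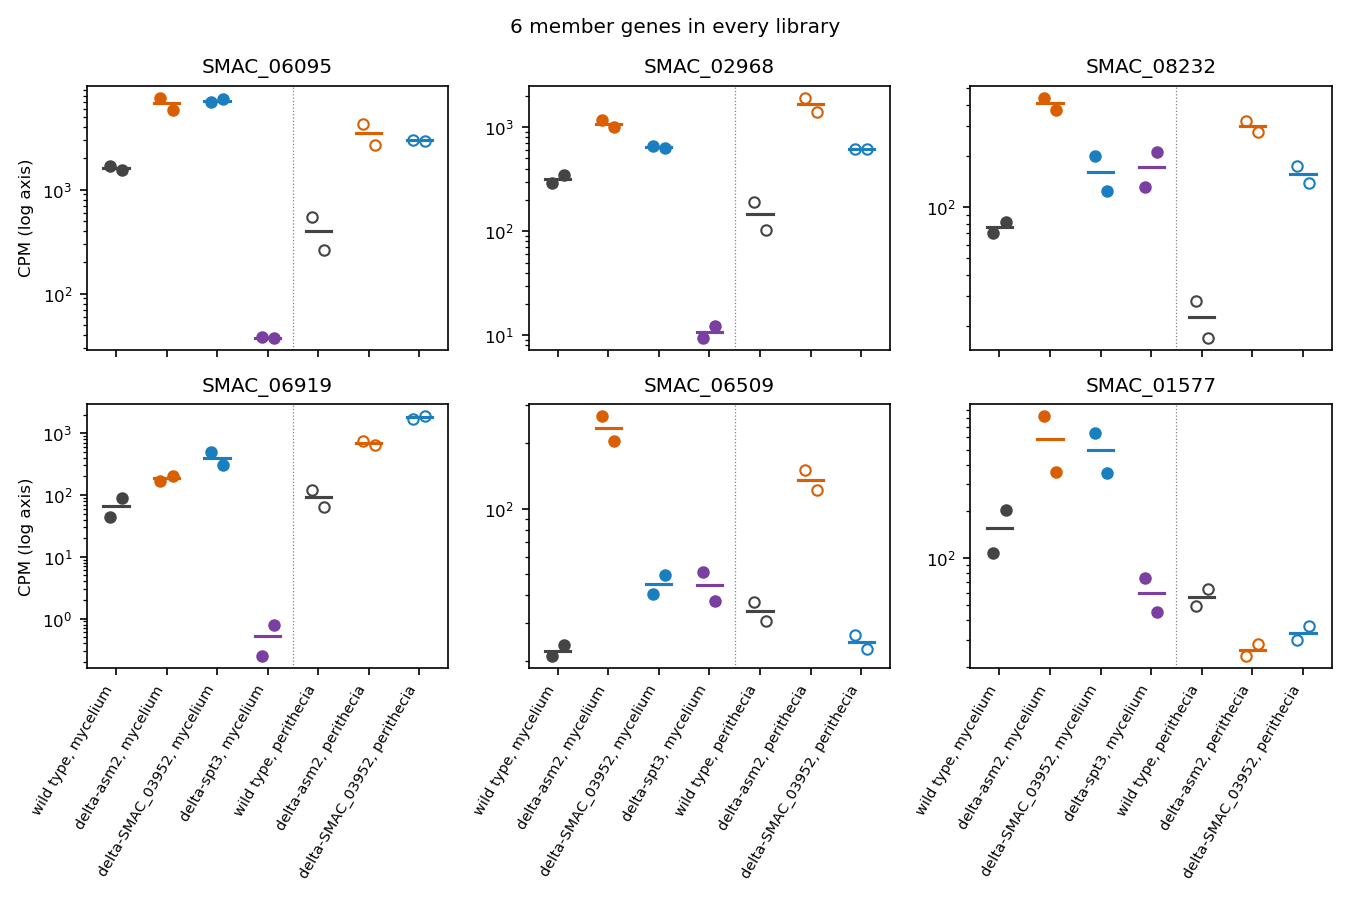
CPM (log axis, own scale in each panel) of 6 members in every library; points are libraries, filled for mycelium and open for perithecia, bars are means of 2 replicates, and colours mark the strains. SMAC_06095, SMAC_02968, SMAC_08232 and SMAC_06919 are higher in perithecia of both deletion strains than in those of the wild type, SMAC_06509 in delta-asm2, and SMAC_01577 in neither.

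SMAC_01577, named here after its values were seen, was high in deletion mycelium and not in perithecia. It stood at 108 and 204 CPM in wild-type mycelium, 819 and 357 CPM in delta-asm2 and 637 and 352 CPM in delta-SMAC_03952 mycelium. In perithecia it stood at 49.6 and 63.2 CPM in the wild type, 23.4 and 28.4 CPM in delta-asm2 and 29.8 and 36.8 CPM in delta-SMAC_03952. The perithecia differences did not pass the test (log2 ratio -1.15 ± 0.46 SE, adjusted p = 0.124 by edgeR in delta-asm2, and -0.86 ± 0.46 SE, adjusted p = 0.228 by edgeR in delta-SMAC_03952).

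By the median, the members were shorter than all genes tested. Their gene models had a median length of 1480 bases, from 291 to 4116, against 1853 bases for all genes tested, and 32 of the 43 were shorter than that. Across genes, the log2 fold change of delta-SMAC_03952 over wild-type mycelium fell with length (Spearman -0.35, 9499 genes from the same 4 libraries), and that of delta-asm2 did so less (-0.12). The part of length in the choice of members was not tested. In perithecia the correlation was 0.07 for delta-asm2 and 0.12 for delta-SMAC_03952 over the wild type. With length trends removed, 18 and 17 members rose there, beside 644 and 735 of all 9499 genes. The part of length in the perithecia results was not tested.

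The members did not sit side by side. In the RefSeq annotation ASM3387043v1, 42 of the 43 could be placed, and no pair lay within 10 protein-coding genes of each other. The 82 other genes next to a member were followed in mycelium, 81 of which passed the filter on low counts. As these are the libraries that chose the members, the values are given with no test. The median log2 fold change of the neighbours over wild-type mycelium was 0.22 in both deletion strains, against -0.02 and 0.03 for all genes.

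The largest differences among the neighbours went in both directions. Beside SMAC_12728, SMAC_03916 had a mean of 6.21 CPM in wild-type and 31.6 CPM in delta-asm2 mycelium (log2 2.40). Beside SMAC_07975, SMAC_07974 had a mean of 133 CPM in the wild type and 28.4 CPM in delta-SMAC_03952 (log2 -2.13). Neighbours on both sides of SMAC_08947 were higher in delta-SMAC_03952, SMAC_08946 with means of 114 against 49.2 CPM and SMAC_08948 with 13.4 against 5.80 CPM. These genes were chosen after their values were seen. The sources used here do not say whether counting used strand, so reads of overlapping neighbours may be shared between them.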

How the data were processed

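The authors deposited raw read counts per gene model for 14 libraries, with the length in bases of each model as another column, per the file headers. The authors' deposited table also holds the log2 fold change and adjusted p-value of their own comparisons, made with DESeq2 per the submitters' processing notes, and a mean normalized signal over all libraries, which was not used. The sources used here do not name an aligner, a counting program or a genome build. Of 10014 rows, 145 for second transcripts hold 0 counts and were left out, which left 9869 gene models.

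Counts were fitted in R 4.3.3 with edgeR 4.0.16. The filter filterByExpr kept 9499 genes and all 43 members. TMM factors, 1 model with a mean per group over 14 libraries and the quasi-likelihood test were used, with Benjamini-Hochberg adjustment over all genes in each of 3 perithecia comparisons; the mycelium fold changes of neighbours and the length correlations come from the same model. SE is the fold change divided by the root of its F statistic. Levels are CPM on library totals; fold changes use TMM scaling. DESeq2 1.42.0 was an alternative. The method was tested on simulated counts in which all genes and groups had the same spread. The outcome is not given here, and nothing is read from it. Replicates of each group differed beyond sampling noise, with a chi-square of 12.3 to 132 per gene. The counting bounds of SMAC_00262, SMAC_12924 and SMAC_06908 cover counting error only. The 95% intervals of perithecia fold changes come from the edgeR SE, which holds the spread between replicates.

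The members and lists were chosen with earlier results of these data known. Named genes are, per comparison, at most 2 members in each direction by ratio or, in perithecia, by fold change among called members with replicates apart, plus the 2 highest per length and 2 on each side of the limit of 1.5 times. Genes so named are followed through the other comparisons, and SMAC_00262, SMAC_01577, SMAC_07623 and the neighbours were chosen after their values were seen. The labels do not tie equal replicate numbers to each other, and the model has no replicate term. Of the gene models, 9531 matched a RefSeq locus tag, and 0 had another symbol.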

Additional observations from a re-analysis of the deposited data

Results flagged for a closer look

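With 2 replicates a group, no group was large enough to look for single libraries that stand apart. Some members, higher in deletion mycelium by the rule, lay below the wild type in the strain's perithecia with replicates that did not overlap. The difference between the tissues was not tested. By that criterion 2 of the 43 members were lower in delta-asm2 and 6 in delta-SMAC_03952 perithecia, beside 25.8% and 27.7% of all genes. In delta-asm2 perithecia these were SMAC_01577 (log2 fold change -1.15) and SMAC_12787 (-0.46). In delta-SMAC_03952 perithecia they were SMAC_12728 (-1.40), SMAC_12787 (-0.94), SMAC_01577 (-0.86), SMAC_02511 (-0.77), SMAC_08947 (-0.68) and SMAC_06509 (-0.59), of which SMAC_12728 passed the edgeR test in perithecia.

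The effects of the deletions in perithecia differed by the edgeR test of delta-asm2 against delta-SMAC_03952 for SMAC_06509 (log2 difference 2.55), SMAC_12728 (1.91), SMAC_02968 (1.504) and SMAC_07623 (1.23), each higher in delta-asm2.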

How the results depend on the processing

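RLE factors, library totals, no filter on low counts, removal of length trends and a replicate block left each count of members and of all genes within 1.5 times. Fits of only the libraries compared called 20 members higher and 1 lower in delta-asm2 perithecia, beside 746 and 824 of all genes. In delta-SMAC_03952 perithecia they called 19 higher and 3 lower, beside 877 and 1239. Between the strains they called 11 higher and 4 lower, beside 1089 and 778. These last fits called 1867 of all genes in either direction, against 427 with all libraries. DESeq2 called 4 members higher and 1 lower between the strains, beside 511 and 174 of all genes (685 in either direction). Leaving out 1 perithecia library at a time gave 9 to 14 members higher and 371 to 704 of all genes (1118 with every library) for delta-asm2, 7 to 11 higher, 0 to 1 lower and 618 to 1175 of all genes (1653) for delta-SMAC_03952, and 1 to 3 higher and 90 to 193 of all genes between the strains. SMAC_06095 turned from 0.30 to -0.14 between the strains without delta-asm2 replicate 1, and was 0.60 without its replicate 2. The rule gave 70 and 10 genes with a looser limit and one of 2 times, and 48, 49 and 51 with 5 CPM, TMM scaling and no limit on delta-spt3. With the replicate block, 15 and 14 members rose and 4 differed between the strains; same-numbered libraries deviated together (correlation above 0.1) in 11 of 21 pairs of groups, from -0.36 to 0.42, and in each of the 3 pairs of perithecia groups (0.27 to 0.34). The causes of these shifts were not tested.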

Other observations

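The members were grouped by delta-spt3 mycelium after their values were seen, and the groups were therefore not tested. The 16 that were lower in delta-spt3 gave 8 calls of higher in delta-asm2 perithecia and 8 in delta-SMAC_03952 perithecia, the 8 that were higher gave 1 and 1, and the remaining 19 gave 6 and 4, beside 5.04% and 6.24% of all genes. Their median log2 fold changes over wild-type perithecia were 1.11 and 1.13 for the lower members, 0.72 and 0.41 for the higher members, and 0.82 and 0.54 for the remaining members. The limit on delta-spt3 kept out 8 further genes that met every other condition of the rule.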
